A study of Mus musculus with 6 samples.

Results

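Cadherins are calcium-dependent adhesion molecules, and the genes described here are the 91 members of that family, among 24421 gene symbols, whose symbols are Cdh with a number or Pcdh followed by a number or letter. The same pattern took in 94 symbols. Cdh5 of blood vessels and the tip link genes Cdh23 and Pcdh15 were dropped. The members were 17 classical cadherins (5 of type I and 12 of type II), 4 other cadherins, 11 non-clustered protocadherins and 59 clustered protocadherins (15 Pcdha, 22 Pcdhb and 22 Pcdhg).

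The samples were 6 libraries of cochlear explants taken from wild-type (WT) mice on postnatal day 2, with 3 samples labelled control and 3 labelled neomycin. Every sample pooled 6 to 8 cultured cochleae. After 12 h in culture, explants were exposed for 6 h to neomycin at 1 mM, an aminoglycoside antibiotic that kills hair cells (HCs). They were then kept for 5 more days in 10 µM EdU, a thymidine analog that marks newly made DNA. The growth protocol gives this text for all 6 samples, and the treatment label was taken to mean that the control explants received no neomycin and otherwise the same culture. Stria vascularis, modiolus and tectorial membrane were removed at dissection, so these groups model the sensory epithelium with attached tissue and not the whole cochlea. The comparison of control with neomycin asked which adhesion genes differed 5 days after HC damage.

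Classical cadherins bind the same cadherin on the neighboring cell and connect to actin through beta-catenin and alpha-catenin, and in the organ of Corti they hold HCs and supporting cells (SCs) in their mosaic. Non-clustered protocadherins are single genes that adhere weakly and signal through their cytoplasmic tails. Clustered protocadherins lie in 3 tandem arrays, alpha, beta and gamma, from which a neuron expresses its own combination, a system known for self-recognition and survival of neurons.

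Promoter sequence is shown for Cdh6, Cdh22 and Pcdh7 because these genes fell after neomycin and had an entry in the RefSeq promoter table used here. The windows held the 250 bases before the RefSeq start in build GRCm38.p6, and the printed part is the stretch upstream of the gene as drawn in GENCODE release M21. The Cdh6 stretch was chr15:13173676-13173925 on the minus strand, that of Cdh22 was chr2:165234854-165234987 on the minus strand, and that of Pcdh7 was chr5:57717831-57717966 on the plus strand. Capitals mark each CpG pair, the dinucleotide that can be methylated, and each line reads 5′ to 3′ toward the gene.
Cdh6: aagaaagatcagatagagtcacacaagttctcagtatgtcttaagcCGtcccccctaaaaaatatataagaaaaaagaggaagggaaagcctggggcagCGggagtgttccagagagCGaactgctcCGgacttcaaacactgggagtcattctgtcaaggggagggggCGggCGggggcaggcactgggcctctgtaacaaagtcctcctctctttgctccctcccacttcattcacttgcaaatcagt
Cdh22: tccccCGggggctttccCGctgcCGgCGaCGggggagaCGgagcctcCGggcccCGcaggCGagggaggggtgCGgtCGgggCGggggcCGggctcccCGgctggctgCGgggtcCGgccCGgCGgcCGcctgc
Pcdh7: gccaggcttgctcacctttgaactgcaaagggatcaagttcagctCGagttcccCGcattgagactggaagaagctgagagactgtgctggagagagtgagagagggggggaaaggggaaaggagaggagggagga

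The printed stretches differed in CpG content, with 6 pairs in 250 bases for Cdh6, 19 pairs in 134 bases for Cdh22 and 2 pairs in 136 bases for Pcdh7. Over the whole 250-base windows the counts were 6, 30 and 7 pairs, against a median of 6 over 32851 windows of the same length. The Cdh22 window was CpG-rich, as 94.06% of all windows held fewer pairs. The TEAD motif GGAATG, searched on both strands, was in none of these windows and in 12.64% of all windows. The E-box CAGGTG, bound by Snail and Zeb repressors and searched on both strands, was also in none of them and was in 17.22% of all windows. Absence of these letters says only that they were not in the window.

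Total counts per sample ran from 50471116 to 66068108. Levels are given as CPM, the count of a gene per 1e6 counts of its TMM-scaled library, and differences as log2 fold change of neomycin against control from edgeR's quasi-likelihood test, with Benjamini-Hochberg adjusted p over 15988 genes. A gene was called at an adjusted p under 0.05 and a fold change over 1.5, and 8.84% of all tested genes were called, 6.60% lower and 2.24% higher. HC markers checked the tissue and the treatment. Of 18 HC markers 15 fell, and their summed level was 1035 to 1187 CPM in control and 401.3 to 488.1 CPM after neomycin. Of the markers of other cells, 7 of 10 for endothelium, 4 of 13 for neurons, 2 of 13 for SCs and 1 of 10 for Schwann cells and glia fell, 5 of 11 for macrophages rose (1 with a correction for exon length), and 1 rose and 1 fell among 10 for mesenchyme. No gene of these marker lists was at 0 counts in any sample. The part of these cells in the results for the members was not tested.

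Members that passed the test were lower after neomycin. Of the 91 members 71 passed the low-count filter, of which 15 fell and 0 rose in edgeR, so that 21.1% of the tested members were called lower against 6.60% of all genes. At an unadjusted p under 0.05, 22 members (31.0%) were lower and 2 (2.82%) higher, against 22.1% and 18.9% of all genes. DESeq2 called 18 lower and 0 higher, against 6.71% and 2.47% of all genes. With the adjusted p alone 17 members (23.9%) were lower and 0 higher, beside 16.1% and 12.9% of all genes. Control and neomycin samples did not overlap for 20 members (28.2%) that were lower, near the 22.5% of all genes, and for 4 (5.63%) that were higher, below the 21.0% of all genes. The calls came from several families, with 2 of 13 tested classical cadherins, 2 of 3 other cadherins, 3 of 11 non-clustered protocadherins and 8 of 44 clustered protocadherins. All 15 called members kept the groups apart, which is no separate support, since the call was made on the same samples. In a pooled explant, fewer cells of a type and less RNA per cell cannot be told apart.

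The type I classical cadherins, the main adhesion molecules of epithelia, included 0 of 5 called genes by edgeR, DESeq2 or voom, and 0 at an unadjusted p under 0.05. Of all genes edgeR called 8.84%, and 41.0% had an unadjusted p under 0.05, so a count of 0 among 5 genes says little by itself. Their summed level was 408.3, 383.0 and 376.0 CPM in control and 414.7, 367.0 and 370.9 CPM after neomycin. The groups overlapped, and the mean was 389.1 ± 16.99 (SD, n = 3) against 384.2 ± 26.47 (SD, n = 3), a ratio of 0.987. The 5 log2 fold changes ran from −0.06 to 0.20 with a median of 0.05, beside a median of −0.004 over all tested genes.

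Cdh1, E-cadherin of epithelial adherens junctions, made up 72.04% to 76.86% of the type I sum in the 6 samples, without a correction for length. Its level was 297.3, 294.4 and 282.8 CPM in control and 304.1, 264.4 and 271.7 CPM after neomycin. The groups overlapped, with a log2 fold change of −0.06 (SE 0.08, edgeR adjusted p = 0.614). Per kb of exon, the scale on which genes can be compared, Cdh1 stood at 63.7 ± 1.68 CPM in control, against 8.72 ± 0.533 for Cdh11, 6.71 ± 0.660 for Cdh3, 5.58 ± 0.962 for Cdh4 and 3.03 ± 0.356 for Cdh2 (SD, n = 3). The SD ranges of Cdh3 and Cdh4 overlapped, and whether these genes differed within the same samples was not tested.

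Cdh4, or R-cadherin, was at 48.31, 34.91 and 38.25 CPM in control and at 49.99, 44.76 and 44.61 CPM after neomycin. Its groups overlapped (log2 fold change 0.20, SE 0.11, edgeR adjusted p = 0.192). Cdh3, or P-cadherin, and Cdh2, the N-cadherin of neural and mesenchymal cells, had log2 fold changes of −0.03 (SE 0.09) and 0.05 (SE 0.10) and edgeR adjusted p of 0.854 and 0.738. The Cdh4 value turned on control 1, without which its log2 fold change was 0.35 (edgeR adjusted p = 0.0152), and with a correction for exon length it was 0.32 (edgeR adjusted p = 0.0305). Neither reached the fold change asked for.

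Type II cadherins differ from type I in their adhesive interface and are known for sorting neurons and mesenchymal cells. Of 8 tested members 2 fell, Cdh6 and Cdh22, and the median log2 fold change was −0.08. Cdh11, a cadherin of mesenchyme and the highest of the type II members per kb of exon, had 80.71, 80.0 and 72.16 CPM in control against 74.68, 69.4 and 73.28 CPM after neomycin. These groups overlapped, with a log2 fold change of −0.10 (SE 0.07, edgeR adjusted p = 0.323).

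Cdh6, a type II cadherin of kidney and neural tissue (chr15:13028701-13173675), was at 10.22, 9.163 and 7.312 CPM in control and at 5.234, 3.695 and 4.841 CPM after neomycin. Every control sample was above every neomycin sample. The log2 fold change was −0.96 (SE 0.17, edgeR adjusted p = 0.00195), a control level 1.94-fold that after neomycin. Cdh22, a cadherin first described in pituitary and brain (chr2:165111507-165234853), was at 3.246, 3.451 and 4.163 CPM in control and 2.598, 2.559 and 1.825 CPM after neomycin. Its groups did not overlap either, but the fold was close to the threshold (log2 fold change −0.64, SE 0.21, edgeR adjusted p = 0.0417), and the call was lost without any 1 of the 3 control samples or without neomycin 2 or 3 (edgeR adjusted p 0.0522 to 0.142). The brain cadherin Cdh10 and the type II member Cdh24 had log2 fold changes of −0.07 (SE 0.15) and −0.02 (SE 0.13) and did not pass the test.

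Cdh8 was the classical cadherin whose samples stood apart in the other direction, at 0.8839, 0.5559 and 0.7472 CPM in control and 0.9791, 0.8982 and 1.434 CPM after neomycin. This gene was chosen after its values were seen. It was 1 of 13 tested classical cadherins (7.69%), against 21.0% of all genes with every neomycin sample higher. Its log2 fold change of 0.59 did not pass the test (SE 0.35, edgeR adjusted p = 0.224), and an antisense gene overlaps it.

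**Figure D1:**
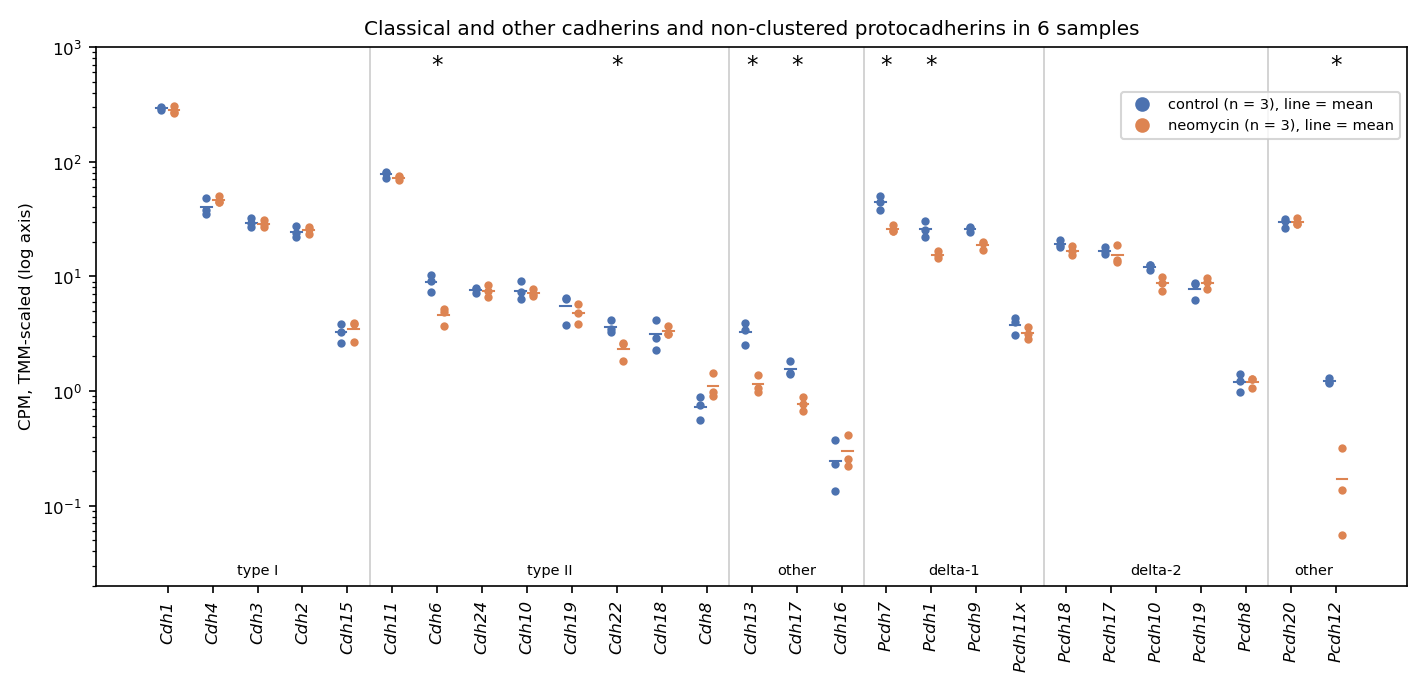
Level of each tested cadherin and non-clustered protocadherin in CPM on a log axis, grouped by family, with one point per sample (blue control, orange neomycin, n = 3 each), a line at the group mean and a star over called genes. The 5 type I cadherins lie side by side in both groups, and the 7 starred genes lie lower after neomycin.

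Among the other cadherins, the atypical Cdh13 and Cdh17 fell. Cdh13, or T-cadherin, is held to the membrane by a lipid anchor and lacks the catenin-binding tail. It lies at chr8:118283733-119324921 and was at 3.942, 2.511 and 3.434 CPM in control and 1.054, 1.39 and 0.9867 CPM after neomycin. The groups were well apart, with a log2 fold change of −1.53 (SE 0.26, edgeR adjusted p = 0.00132), which is 2.88-fold higher in control.

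Cdh17, the liver-intestine cadherin (chr4:11758147-11817895), was at 1.406, 1.821 and 1.423 CPM in control and 0.885, 0.7627 and 0.6702 CPM after neomycin. The groups did not overlap (log2 fold change −1.001, SE 0.30, edgeR adjusted p = 0.0268). The call was lost without control 1, control 2, neomycin 2 or neomycin 3 (edgeR adjusted p 0.0522 to 0.117). Cdh16, a cadherin of kidney epithelium, was near the detection limit at a mean of 0.247 CPM in control and 0.297 CPM after neomycin and did not pass the test (edgeR adjusted p = 0.750).

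Of the 11 non-clustered protocadherins 3 fell, Pcdh7, Pcdh1 and Pcdh12, and 5 were lower by adjusted p alone. These are 27.3% and 45.5% of the 11, against 6.60% and 16.1% of all genes. The summed level was 196.2, 197.4 and 169.2 CPM in control and 147.9, 144.5 and 140.1 CPM after neomycin, so that no sample overlapped. The means were 187.6 ± 15.95 and 144.2 ± 3.945 (SD, n = 3), a ratio of 0.769. Delta-1 members carry a conserved motif that binds protein phosphatase 1, and 2 of the 4 delta-1 genes fell, against 0 of the 5 delta-2 genes. With a correction for exon length 1 delta-1 gene was called. By adjusted p alone 3 delta-1 genes and 1 delta-2 gene were lower. The latter was Pcdh10, whose groups did not overlap (log2 fold change −0.48, SE 0.13, edgeR adjusted p = 0.01475). Corrected for exon length, its log2 fold change was −0.23 (edgeR adjusted p = 0.236) and it no longer passed, while the 3 delta-1 genes still did. An antisense gene overlaps Pcdh10. Whether delta-1 and delta-2 genes differed from each other was not tested.

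Pcdh7 (chr5:57717967-58133230), a delta-1 protocadherin, was at 44.92, 50.4 and 37.81 CPM in control and 28.04, 24.66 and 25.04 CPM after neomycin. The lowest control sample was above the highest neomycin sample, with a log2 fold change of −0.78 (SE 0.10, edgeR adjusted p = 0.000314). With a correction for exon length it was −0.58 (edgeR adjusted p = 0.000346), just under the fold threshold. An antisense gene overlaps Pcdh7, and without strand in the counting the reads of both cannot be told apart.

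Pcdh1, a delta-1 protocadherin of epithelia including the airway, was at 30.6, 25.44 and 21.83 CPM in control and 16.59, 15.3 and 14.58 CPM after neomycin. Its groups did not overlap (log2 fold change −0.75, SE 0.12, edgeR adjusted p = 0.000956). Pcdh9, another delta-1 gene known from the nervous system, was at 26.71, 26.17 and 24.59 CPM in control and 19.68, 17.1 and 19.96 CPM after neomycin. It was lower by the adjusted p (log2 fold change −0.45, SE 0.09, edgeR adjusted p = 0.00397) but not by 1.5-fold, so it was not called. Pcdh20, in contrast, had overlapping groups and a log2 fold change of 0.01 (SE 0.09, edgeR adjusted p = 0.939).

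Pcdh12, also known as VE-cadherin-2 and expressed in endothelium, had the largest fold of all tested members. Its counts were 90, 63 and 66 in control and 17, 8 and 3 after neomycin, which are 1.304, 1.208 and 1.174 CPM against 0.3201, 0.1356 and 0.05585 CPM. The log2 fold change was −2.84 (SE 0.50, edgeR adjusted p = 0.00180). Of 10 endothelial markers 7 fell. Among them was Cdh5, VE-cadherin, at 9.607, 7.994 and 8.824 CPM in control and 1.883, 2.288 and 2.197 CPM after neomycin. The sum of the 10 markers was 326.6 to 372.1 CPM in control and 307.4 to 362.4 CPM after neomycin, since Emcn held most of the sum and did not pass the test. Their part in the result for Pcdh12 was not tested.

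**Figure D2:**
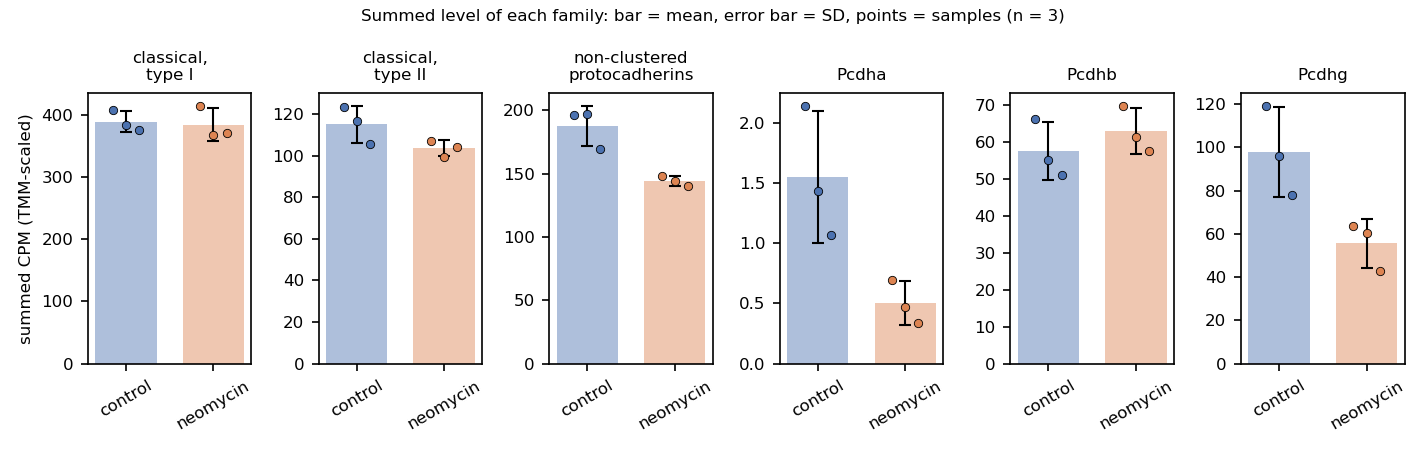
Summed level of each family in CPM on a linear axis that starts at 0 (bars are means, error bars SD, points samples, n = 3 per group). The type I and Pcdhb panels overlap between groups, and the Pcdhg, Pcdha and non-clustered panels do not.

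The clustered protocadherins occupy 1 stretch of chromosome 18 in GRCm38, with the alpha, beta and gamma arrays in that order. Each beta gene is a single exon, whereas each alpha or gamma gene is a variable exon joined to constant exons shared by its whole array. Reads in the shared exons cannot be assigned to 1 gene, and how the counting treated them is not given in the sources used here. Counts of a single alpha or gamma gene are therefore uncertain and are given as deposited, without comparison of levels between genes.

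The alpha array was barely detected. Of 15 Pcdha genes 14 failed the low-count filter, with 151 counts in control and 34 after neomycin in all, and the tested gene was Pcdhac2. Its level was 1.014, 0.6134 and 0.5337 CPM in control and 0.4142, 0.2542 and 0.2234 CPM after neomycin. The groups did not overlap, but the gene missed the call narrowly (log2 fold change −1.28, SE 0.45, edgeR adjusted p = 0.0507). DESeq2 called it, at an adjusted p of 0.0446. Pcdha9 was at 13, 15 and 8 counts in control and 1, 1 and 0 counts after neomycin, and Pcdhac1 was at 8, 6 and 9 counts against 0, 4 and 0. Pcdha6 and Pcdha7 had 0 counts in all samples, where a count of 0 allows up to 3 counts in a sample.

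The summed Pcdha level was 2.145, 1.438 and 1.067 CPM in control and 0.6967, 0.4745 and 0.3351 CPM after neomycin, a ratio of 0.324. Every control sample lay above every neomycin sample, at a depth of 60 to 148 counts in control and 18 to 37 counts after neomycin. Other members that did not reach the filter were Cdh7, Cdh9, Cdh12, Cdh20, Cdh26 and Pcdhb1, of which Cdh20 had 16, 2 and 9 counts in control and 6, 1 and 1 after neomycin. Cdh12 had 6, 1 and 6 counts against 16, 4 and 6, and Cdh9 had 11, 5 and 7 counts against 3, 4 and 2. Pcdhb1 had 18, 0 and 2 counts against 6, 0 and 0. Cdh7 had at most 3 counts and Cdh26 at most 4 in any sample. The largest count of any untested member was 23, for Pcdha12 in control 1.

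The beta array held no called gene. Of 21 tested Pcdhb genes 0 were called by edgeR, DESeq2 or voom, 0 passed by adjusted p alone and 2 (9.52%) were higher at an unadjusted p under 0.05, against 18.9% of all genes. In 3 genes (14.3%) the neomycin samples were all higher and in 1 (4.76%) all lower, against 21.0% and 22.5% of all genes. Their median log2 fold change was 0.15, with 14 above and 7 below 0 and a range from −0.90 to 0.47. The summed level was 66.4, 55.3 and 51.06 CPM in control and 69.89, 61.49 and 57.64 CPM after neomycin, a ratio of 1.09. These values overlapped between the groups.

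Pcdhb17, at 2.95 CPM per kb of exon in control against 1.40 for Pcdhb9 and 0.469 for Pcdhb14, was at 14.82, 14.93 and 11.53 CPM in control and 15.48, 12.59 and 13.5 CPM after neomycin (log2 fold change 0.01, SE 0.13, edgeR adjusted p = 0.967). Pcdhb9 was at 4.768, 3.604 and 4.43 CPM in control and 6.741, 5.203 and 5.12 CPM after neomycin. Its groups did not overlap, and its log2 fold change of 0.41 (SE 0.17) had an edgeR adjusted p of 0.0937. Pcdhb14 had a log2 fold change of 0.33 (SE 0.19, edgeR adjusted p = 0.215).

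Of the 22 Pcdhg genes 8 fell, which is 36.4% against 6.60% of all genes, and all 22 log2 fold changes were below 0. The median was −0.84 and the range −1.71 to −0.04. The summed level was 119.3, 96.12 and 77.89 CPM in control and 63.66, 60.57 and 42.75 CPM after neomycin. The lowest control sample was above the highest neomycin sample, and the means of 97.8 ± 20.73 and 55.7 ± 11.29 (SD, n = 3) gave a ratio of 0.569. Calls were made in each class of the array, with 3 of 12 Pcdhga, 3 of 7 Pcdhgb and 2 of 3 Pcdhgc genes.

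Pcdhgc3, a C-type gamma gene known for its part in dendrite branching, was at 67.61, 54.46 and 44.58 CPM in control and 32.2, 32.29 and 24.63 CPM after neomycin. The groups did not overlap (log2 fold change −0.90, SE 0.14, edgeR adjusted p = 0.000791), and an antisense gene overlaps Pcdhgc3. The remaining 21 genes also kept the groups apart in their sum, with 51.65, 41.66 and 33.31 CPM in control and 31.46, 28.29 and 18.11 CPM after neomycin.

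Pcdhga7, which an antisense gene overlaps, was at 5.478, 5.137 and 5.622 CPM in control and 3.954, 2.813 and 2.048 CPM after neomycin (log2 fold change −0.88, SE 0.22, edgeR adjusted p = 0.0104). Pcdhgb6 was at 6.289, 5.77 and 3.861 CPM against 2.937, 3.745 and 1.955 CPM (log2 fold change −0.88, SE 0.25, edgeR adjusted p = 0.0197). Pcdhgb8 was at 0.739, 0.7284 and 0.6761 CPM against 0.2824, 0.2203 and 0.1489 CPM (log2 fold change −1.71, SE 0.44, edgeR adjusted p = 0.0122). In all 3 genes the highest neomycin sample stayed below the lowest control sample. The Pcdhgb6 call was lost without control 1, control 2 or neomycin 3 (edgeR adjusted p 0.0659 to 0.0784), and the Pcdhgb8 call without neomycin 3 (edgeR adjusted p = 0.0530). Pcdhgc4, a C-type gene known for neuronal survival, had 1.232, 0.4409 and 0.4804 CPM in control, of which control 1 was more than 2-fold the others, and 0.2448, 0.2034 and 0.2606 CPM after neomycin. Its log2 fold change was −1.61 (SE 0.51, edgeR adjusted p = 0.0328) and −0.95 without control 1 (edgeR adjusted p = 0.252). The call was also lost without any 1 of the 3 neomycin samples (edgeR adjusted p 0.0636 to 0.110) and in voom (adjusted p = 0.0574). Pcdhga4, Pcdhga5 and Pcdhgb2 had log2 fold changes of −0.90, −1.30 and −1.08 and edgeR adjusted p of 0.0428, 0.0301 and 0.0467. These 3 calls were lost when single samples were left out, for Pcdhgb2 without any 1 of the 6. In voom the Pcdhga5 and Pcdhgb2 calls were also lost (adjusted p 0.0605 and 0.0528). The Pcdhga4 and Pcdhgb2 calls were lost with a correction for exon length (edgeR adjusted p 0.0515 and 0.0579).

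The number of Pcdhg calls rested on few samples and on the processing. It was 3 without control 1, 4 without control 2, 5 without neomycin 2 and 2 without neomycin 3, and 9 and 7 without control 3 and neomycin 1. With all 6 samples it was 6 in voom, 6 with exon length correction, 4 when 1 CPM in 3 samples was asked for, 10 in DESeq2 and 12 with a replicate block. The log2 fold changes below 0 numbered 19 of 22 without control 1, 20 without neomycin 3 and 21 without neomycin 2. Of 18 HC markers 15 fell, and of 13 neuron markers 4 fell, Nefl, Nefm, Nefh and Snap25. By adjusted p alone 5 neuron markers were lower and 1 higher, Syt1 (log2 fold change 0.37, edgeR adjusted p = 0.0346). The sum of the 13 was 219.5 to 318.5 CPM in control, highest in control 1, and 204.7 to 222.6 CPM after neomycin. These sums overlapped between the groups. The sum of the SC markers was 2919 to 3354 CPM in control and 3659 to 3773 CPM after neomycin. S100a1 was the largest part of it, at a mean of 1561 CPM in control and 2144 CPM after neomycin. With a correction for exon length its log2 fold change was 0.08 (edgeR adjusted p = 0.494). Of the 13 SC markers 0 were called higher and 2 lower. The part of these cells in the gamma result was not tested.

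**Figure D3:**
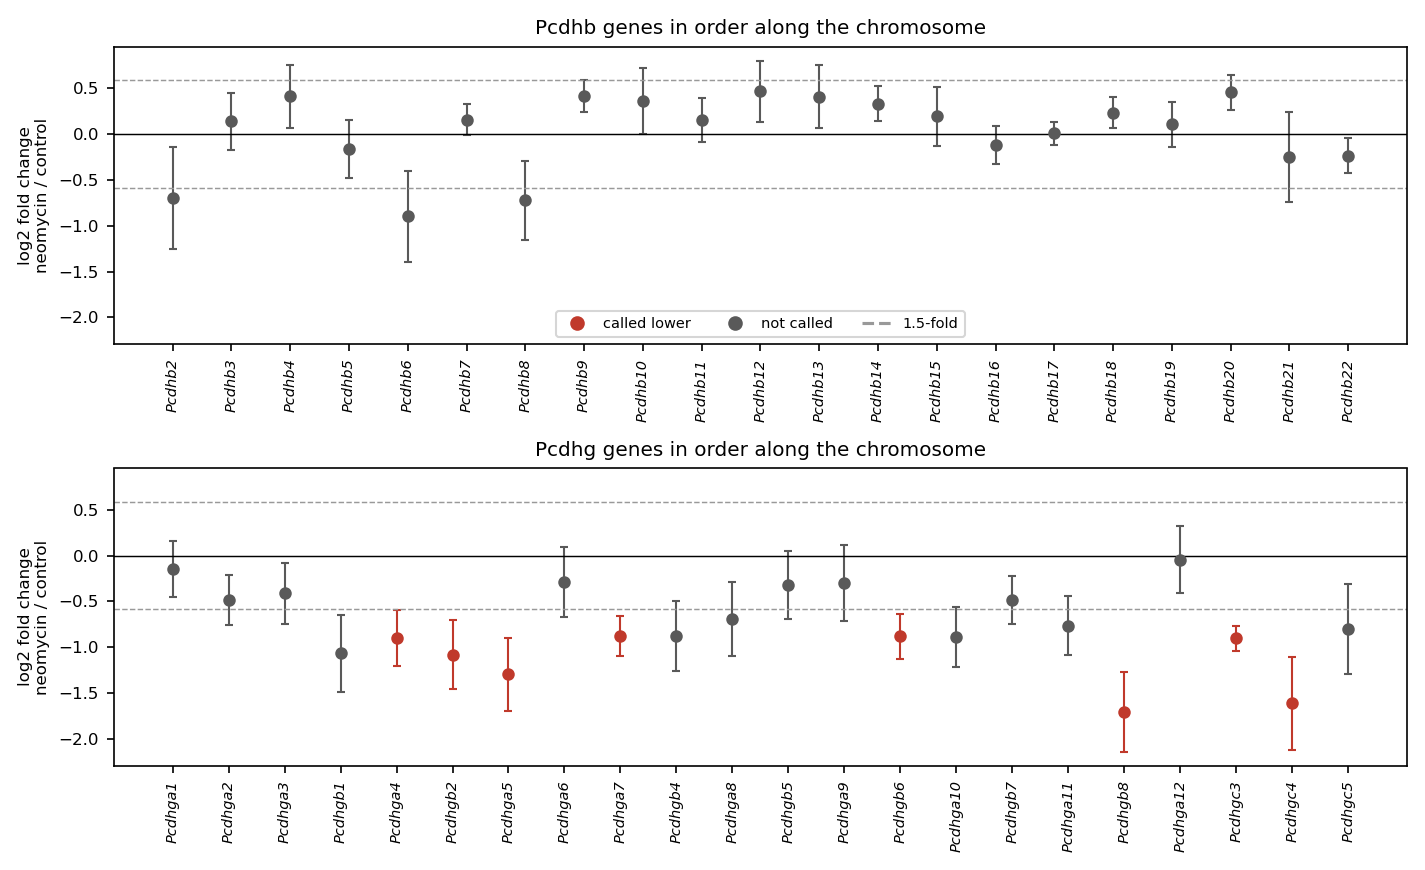
Log2 fold change of neomycin against control (points, error bars SE) for the tested Pcdhb genes (upper panel) and Pcdhg genes (lower panel) in their order along the chromosome, with called genes in red and 1.5-fold as dashed lines. Of 21 Pcdhb genes 14 lie above 0, and all 22 Pcdhg genes lie below 0.

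The beta and gamma arrays were also set against each other within each sample. The ratio of summed Pcdhg to summed Pcdhb CPM was 1.796, 1.738 and 1.525 in control and 0.9108, 0.9851 and 0.7416 after neomycin and is compared between samples only, since it is not per length. Without Pcdhgc3 the ratio was 0.7778, 0.7532 and 0.6523 in control and 0.4502, 0.46 and 0.3143 after neomycin, and the groups stayed apart. The 3 neomycin samples were thus all below the 3 control samples in either form.

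Classical cadherins and clustered protocadherins were compared as groups. The 13 tested classical members had 2 calls (15.4%) and a median log2 fold change of −0.03, and the 44 tested clustered members had 8 calls (18.2%) and a median of −0.31. The shares of called genes were thus close, and both lay above the 6.60% of all genes. Summed over all members, clustered to classical CPM was 0.3534, 0.3061 and 0.2701 in control and 0.2573, 0.2627 and 0.2121 after neomycin. The neomycin samples were lower, with neomycin 2 just under control 3. The clustered count was the less stable, at 3 to 11 when 1 sample was left out, lowest without control 1 or neomycin 3 and 4 without control 2, and the classical count was 1 or 2, being 1 without any 1 sample other than neomycin 1.

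**Figure D4:**
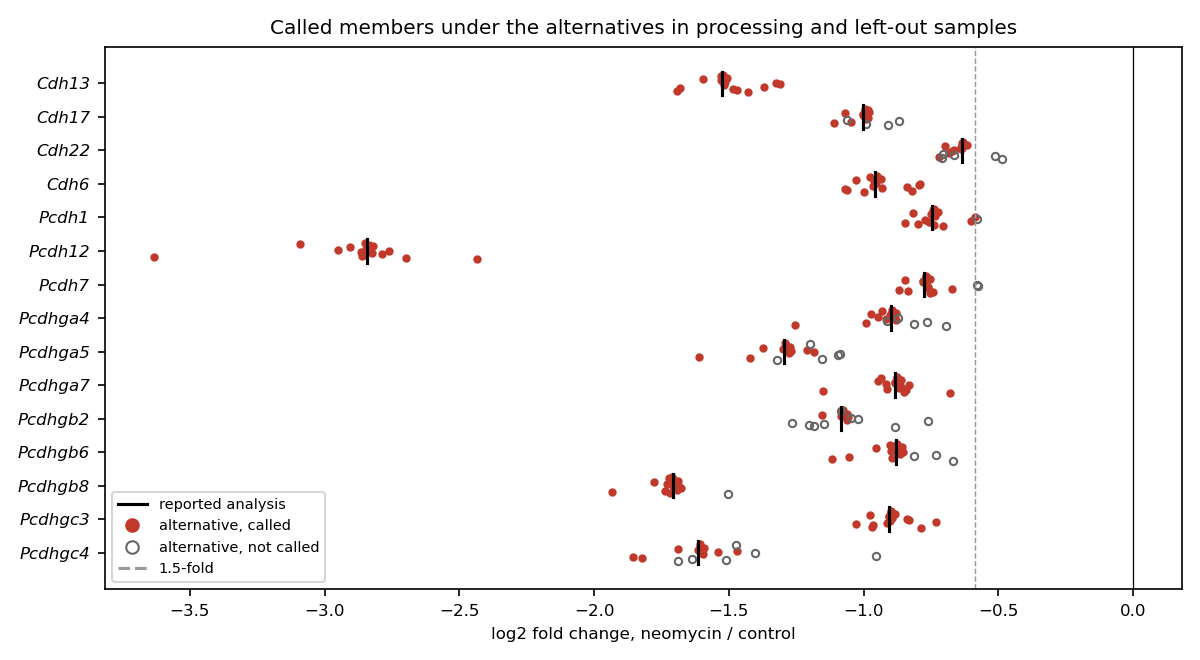
Log2 fold change of the 15 called members in the reported analysis (black line) and under the alternatives in processing and left-out samples (filled if called, open if not), with 1.5-fold as a dashed line. All values lie below 0, and Cdh13, Cdh6, Pcdh12, Pcdhga7 and Pcdhgc3 were called under all 17 alternatives.

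Genes that work with cadherins were rarely called, and those that passed by adjusted p alone were mostly lower. Of 59 tested partners in 7 lists 2 were called (3.39%, both lower), against 8.84% of all genes. By adjusted p alone 17 (28.8%) were lower and 2 (3.39%) higher, against 16.1% and 12.9% of all genes, and the median log2 fold change was −0.13. Corrected for exon length, the median was −0.06 and 1 partner was called. Of the lower genes Ctnnd1, Jup, Vcl, Afdn and Nipbl then no longer passed (edgeR adjusted p 0.0587 to 0.209), and the rest still did. Both higher genes, Brk1 and Psenen, were lost as well (edgeR adjusted p 0.614 and 0.769). Of 11 tested catenins and junction adaptors 1 was called and 6 were lower by adjusted p. Of these 6 only Ctnnd2 and Plekha7 still passed with the length correction (edgeR adjusted p 0.0345 and 0.000967). Ctnnb1, beta-catenin, was at 1136, 1090 and 1156 CPM in control and 1112, 1115 and 1085 CPM after neomycin (log2 fold change −0.03, edgeR adjusted p = 0.809). Ctnna1, alpha-catenin, had a log2 fold change of 0.00 (edgeR adjusted p = 0.9996), and Ctnnd1, p120-catenin that stabilizes cadherins at the membrane, had −0.35 (edgeR adjusted p = 0.0204), lower but not by 1.5-fold. Corrected for exon length, the Ctnnd1 value was −0.23 (edgeR adjusted p = 0.0587).

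Plekha7, which links p120-catenin to microtubules at the apical junction, was called. It was at 43.39, 41.77 and 39.51 CPM in control and 28.04, 26.64 and 24.39 CPM after neomycin, with no overlap (log2 fold change −0.66, SE 0.08, edgeR adjusted p = 0.000186). With a correction for exon length its log2 fold change was −0.43 (edgeR adjusted p = 0.000967), under the fold threshold, so the call was lost. Wasf3, a member of the WAVE complex that binds protocadherin tails, was at 10.19, 7.745 and 5.373 CPM in control and 3.916, 3.474 and 2.42 CPM after neomycin, also with no overlap (log2 fold change −1.25, SE 0.24, edgeR adjusted p = 0.00258). Of the 11 protocadherin intracellular partners Wasf3 was the 1 called, with 5 lower and 1 higher by adjusted p.

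By edgeR, DESeq2 and voom the other lists held no call: 0 of 4 nectins, 0 of 8 desmosome genes, 0 of 6 cadherin shedding proteases, 0 of 13 chromatin regulators of the protocadherin clusters and 0 of 6 E-cadherin repressors. By adjusted p alone 2 nectins and 1 desmosome gene were lower, 1 shedding protease was lower and 1 higher, 2 chromatin regulators were lower and none of the 6 repressors passed. Over these 37 genes that is 16.2% lower and 2.70% higher, against 16.1% and 12.9% of all genes. At an unadjusted p under 0.05 these lists held 2, 2, 2, 4 and 0 genes, 10 of 37, below the 41.0% of all genes. The 2 lower chromatin regulators were Nipbl, which loads cohesin, and Dnmt1, the maintenance DNA methyltransferase, with log2 fold changes of −0.32 and −0.44 (edgeR adjusted p 0.0101 and 0.00225). Corrected for exon length, they were −0.15 and −0.32 (edgeR adjusted p 0.1005 and 0.00381), so Nipbl no longer passed. Ctcf, whose sites lie at cluster promoters, was at 72.44, 71.96 and 69.87 CPM in control and 75.58, 71.28 and 66.5 CPM after neomycin, with a log2 fold change of −0.01 (edgeR adjusted p = 0.959). Ctnnb1, Ctnna1, Ctnnd1, Ctnnd2, Jup, Vcl, Afdn, Brk1, Psenen, Nipbl, Dnmt1 and Ctcf were named after their values were seen.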

How the data were processed

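RNA-seq was done on 6 pooled samples of cochlear explants, 3 control and 3 neomycin. The authors called bases with CASAVA 1.8, trimmed reads with Trimmomatic 0.23, aligned them to UCSC mm10 with HISAT2 and counted them per gene symbol with HTSeq; the strand setting is not given in the sources used here. The deposited table holds counts, whole numbers without normalization. The labels do not say whether samples came from separate cultures or litters, so p-values measure the spread between these samples.

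Counts were scaled with TMM and filtered with filterByExpr (minimum count 10) in edgeR 4.0.16 under R 4.3.3, leaving 15988 of 24421 symbols. The quasi-likelihood test compared neomycin with control over all genes, with Benjamini-Hochberg adjustment. SE was the log2 fold change divided by the root of F. Total counts of 50471116 to 66068108 per sample set the precision, and a gene with 3 counts or fewer was taken as at the floor. Floors cover counting error only.

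Alternatives were DESeq2 1.42.0, voom in limma 3.58.1, other scalings, filters and thresholds, exon length and GC corrections from GENCODE M21, a replicate block, and leaving out each sample. The rule named all called members, Cdh1 to Cdh4, the highest 3 members by CPM of each family, called partners and untested members. Members and lists were chosen with earlier results of these data known.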

Additional observations from a re-analysis of the deposited data

How the results depend on the processing

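All 15 called members stayed lower under the 17 alternatives that could be fitted for them, and 5 were called under each. For the named members, 421 values kept their call and direction, 41 lost the call, 5 gained it and 20 changed sign, all of the last in genes that did not pass the test. The count of members called (15) was 6 at an adjusted p under 0.01 and 8 to 17 with 1 sample left out, lowest without control 1 or neomycin 3 and 9 without control 2. The classical count (2) was 1 at that threshold and 1 to 2 with a sample left out. The non-clustered count (3) was 1 with exon length correction and replicate block, 5 with no fold threshold and 3 to 4 with a sample left out. The clustered count (8) was 4 when 1 CPM in 3 samples was asked for, 1 at an adjusted p under 0.01, 13 with the replicate block, and 3 to 11 with a sample left out, with 3 without control 1 or neomycin 3 and 4 without control 2. The partner count (2) was 5 with total counts, 1 with exon length correction with or without the block, 19 with no fold threshold, and 2 to 4 with a sample left out, highest without control 3 or neomycin 1. The clustered median (−0.31) was −0.69 with no low-count filter and −0.59 to −0.16 with a sample left out, lowest without neomycin 1, and the classical median (−0.03) was −0.08 to 0.02. The cause of these moves was not tested.

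Sign changes with another setting were −0.0197 for Cdh2, −0.0597 for Pcdh20 and −0.0615 for Pcdhb17 with total counts, 0.0604 for Cdh11 and 0.122 for Cdh10 with exon length correction (0.05996 and 0.13 with the block), and 0.0018 for Cdh24 with upper quartile scaling. With 1 sample left out the log2 fold changes were −0.169 to 0.0955 for Cdh10, −0.0477 to 0.679 for Cdh16, −0.00974 to 0.155 for Cdh2, −0.107 to 0.0635 for Cdh24, −0.0885 to 0.0557 for Cdh3, −0.0453 to 0.0651 for Pcdh20, −0.092 to 0.0746 for Pcdhb17. Same-numbered control and neomycin samples deviated together with correlations of 0.1651, 0.0264 and 0.0949, not all over 0.1, and control 2 correlated best with neomycin 3, so the numbers were not taken to pair the samples. Total counts moved the median of all genes to −0.0732, turned the type I median from 0.05 to −0.02, and left 15.7% of calls higher, against 25.3%. With the replicate block Cdh4 had an adjusted p of 0.0394 (0.00583 with exon length correction as well) without reaching 1.5-fold. For 14 Pcdha genes, Cdh7, Cdh9, Cdh12, Cdh20, Cdh26 and Pcdhb1 the counts were too low for a test, and whether depth or the treatment of shared exons set the Pcdha counts was not tested.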
